A study of Mus musculus with 4 samples.

Results

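In all, 10 genes of the Notch pathway were followed in retinoic acid-treated mouse P19 cells: the ligands Dll1, Dll3 and Jag1, the receptors Notch1, Notch2 and Notch3, the sugar-transferring enzyme Mfng, and the Hes transcription factors Hes1, Hes5 and Hes6. Every probe set of the array whose only annotated gene symbol is one of these 10 was kept, which gave 10 of the array's 12393 singly annotated genes and 16 of its 22690 probe sets, 4 of ligands, 6 of receptors, 1 of Mfng and 5 of Hes genes. P19 is a mouse embryonal carcinoma line that takes a neural course when aggregated in retinoic acid. One line constitutively expressed human LIN28A, an RNA-binding protein known for blocking maturation of the let-7 microRNAs, and the control line was unmodified P19 cells. Both lines grew as aggregates in Petri dishes with serum and all-trans retinoic acid (5e-07 M) for 4 days, and 2 arrays, numbered 1 and 2, were made from each. The labels name neither the promoter that drives LIN28A nor whether that line is a single clone, and they do not say that arrays of a line came from separate cultures, so any p-value covers the spread among these arrays alone, which may be technical.

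In Notch signalling, a ligand on one cell pulls on a Notch receptor on its neighbour, proteases then free the receptor's intracellular part, and this joins the DNA-binding protein RBPJ and Mastermind proteins in the nucleus to switch on Hes and Hey genes. Hes1 and Hes5 are repressors that hold neural progenitors undifferentiated, in part by shutting down proneural factors, which in turn switch on the Delta ligands in cells that start to become neurons. Hes6 is known to oppose Hes1 and to rise with neurogenesis, and Dll3 is a divergent Delta protein that acts mostly inside the cell that makes it.

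Promoter sequence was available for 8 of the 10 genes, in 10 windows from 250 bases before to 50 bases after an annotated start (RefSeq, GRCm38.p6). Hes5 is shown because it had the largest difference between the lines among the members, Hes6 as another Hes gene, in that one of its 2 windows that holds N boxes, and Dll3 as the ligand with the largest difference. Capitals mark matches on either strand to the RBPJ core GTGGGAA, to the N box CACNAG, at which Hes repressors bind, and to CACGNG, a further site of Hes proteins; CACGAG meets both of the last patterns.
Hes5, chr4:154960673-154960972, + strand: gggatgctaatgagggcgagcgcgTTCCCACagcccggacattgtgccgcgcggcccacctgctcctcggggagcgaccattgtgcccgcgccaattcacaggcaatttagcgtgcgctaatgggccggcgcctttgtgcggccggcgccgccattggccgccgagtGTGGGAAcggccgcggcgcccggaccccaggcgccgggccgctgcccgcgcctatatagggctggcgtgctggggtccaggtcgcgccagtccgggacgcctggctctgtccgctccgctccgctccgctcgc
Hes6, chr1:91413173-91413472, - strand: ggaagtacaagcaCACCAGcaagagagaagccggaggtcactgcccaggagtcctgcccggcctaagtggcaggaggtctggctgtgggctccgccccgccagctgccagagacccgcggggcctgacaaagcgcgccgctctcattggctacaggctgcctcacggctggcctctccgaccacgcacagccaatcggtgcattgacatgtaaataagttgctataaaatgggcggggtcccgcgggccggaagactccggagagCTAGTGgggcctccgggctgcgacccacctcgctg
Dll3, chr7:28301736-28302035, - strand: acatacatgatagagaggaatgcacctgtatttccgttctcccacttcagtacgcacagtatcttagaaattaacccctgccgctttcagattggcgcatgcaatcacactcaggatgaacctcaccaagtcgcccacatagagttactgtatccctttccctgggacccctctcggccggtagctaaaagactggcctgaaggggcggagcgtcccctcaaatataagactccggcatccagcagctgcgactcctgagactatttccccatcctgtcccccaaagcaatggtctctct

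Of the 10 member windows only that of Hes5 held the RBPJ core. It held 2 matches, beginning 226 and 83 bases before the start and lying on opposite strands. Over all 32851 windows of this length, 6.38% held at least 1 match and 0.256% held 2 or more. N boxes were present in 5 member windows, against 42.5% of all windows, and CACGNG in 6, against 27.5%; the Hes5 and Dll3 windows held neither. These matches are letters in a window and were not tested for binding, and an absent match says only that these letters are not there.

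Median intensities of the arrays were 29.0 and 36.7 in LIN28A cells and 35.8 and 38.6 in control cells, on a linear scale. Their trimmed means were nearly equal, at 150.1 on each array, but no source used here states how the arrays were scaled. With so few arrays, the precision of each value below is limited by their number. Arrays with the same number resembled each other more than arrays of the same line: across probe sets, which are not independent replicates, Pearson's r of log2 values was 0.978 between the lines in number 1 and 0.981 in number 2, against 0.960 between the LIN28A arrays and 0.953 between the control arrays. A control probe set for 18S ribosomal RNA also split by number, at 146 and 13.2 in LIN28A 1 and 2 and 331 and 13.5 in control 1 and 2. The ratio of the 3′ to the 5′ probe set of actin, a sign of RNA quality, was 3.37 and 3.09 in LIN28A 1 and 2 and 4.71 and 2.76 in control 1 and 2, highest in control 1. Its part in values where control 1 stood apart, among them Hes5 at 1423146_at, Notch1 at 1418634_at, Jag1, Hey1 and Itch, was not tested. Differences are therefore given within each number as well. Neural progenitor markers were present, with Sox2 at 1557 and 1295 in LIN28A cells and 1902 and 1697 in control cells. Neuronal ones were present too, with all 12 listed genes past the filter on low values. Of 10 endoderm markers, 5 did not pass that filter (among them Sox17, Foxa2 and Gata4) and 5 did. Of those that passed, Sparc read 277.5 and 563.3 in LIN28A 1 and 2 and 396.3 and 352 in control 1 and 2. Lama1 read 127.4 and 335.7 in LIN28A 1 and 2 and 166.6 and 383.3 in control 1 and 2. Col4a1 read 344.7 and 192.7 in LIN28A 1 and 2 and 210.8 and 188.2 in control 1 and 2. Dab2 and Gata6 also passed but were dim.

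No member passed the test for a difference between the lines across all probe sets, which does not show that they were alike. Limma on log2(intensity + 16) gave all 15 member probe sets past the filter a Benjamini-Hochberg adjusted p of 0.999997, and called 0 of 15838 probe sets in either direction (0.00% higher and 0.00% lower). Without adjustment, the p fell under 0.05 with LIN28A higher for 0.442% of all probe sets and with LIN28A lower for 1.21%; the members' counts were 1, a Hes5 probe set, and 0. These unadjusted counts, 70 higher and 192 lower, depended on the setting: they were 167 and 107 with median centring, 468 and 890 with the replicate block, and 705 and 709 with the block and quantile normalization. The size and repeatability of the values are given below as description. Differences on the log2(intensity + 16) scale understate the change of dim probe sets, and with no detection calls in the table, no statement can be made on whether a dim probe set exceeded background.

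Hes5 was the member with the largest difference, and it was higher in LIN28A cells at both of its probe sets. At 1456010_x_at it read 924 and 337 in LIN28A 1 and 2, against 186 and 194 in control 1 and 2. The LIN28A arrays lay above both of the control arrays, and LIN28A 1 stood far above the other 3 arrays. The level was 4.98 times that of control in number 1 and 1.74 times in number 2. Group means were 631 ± 415 in LIN28A cells and 190 ± 6.15 in control cells (SD, n = 2 each), with a log2 difference of 1.48 ± 0.50 (SE). That difference was 0.78 with LIN28A 1 left out and 2.19 with LIN28A 2 left out. The suffix of this probe set marks probes that may also match other transcripts.

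The other Hes5 probe set, 1423146_at, read 134 and 119 in LIN28A 1 and 2 and 50.4 and 104 in control 1 and 2. Here too the groups did not overlap, but the array that stood apart was control 1, which was low, and not LIN28A 1. The ratio of LIN28A to control was 2.65 in number 1 and 1.15 in number 2, and the log2 difference was 0.67 ± 0.37 (SE), or 0.25 without control replicate 1 and 1.10 without control replicate 2. Both probe sets thus gave a higher Hes5 level in LIN28A cells in each number, with the larger ratio in number 1. Number 1 placed both Hes5 probe sets at least 1 log2 unit above control, as it did 1.02% of all probe sets, and number 2 placed 0 members there, against 1.10% of all probe sets. At least 1 log2 unit below control there were 0 member probe sets in either number, against 2.55% and 2.29% of all probe sets in numbers 1 and 2.

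**Figure D1:**
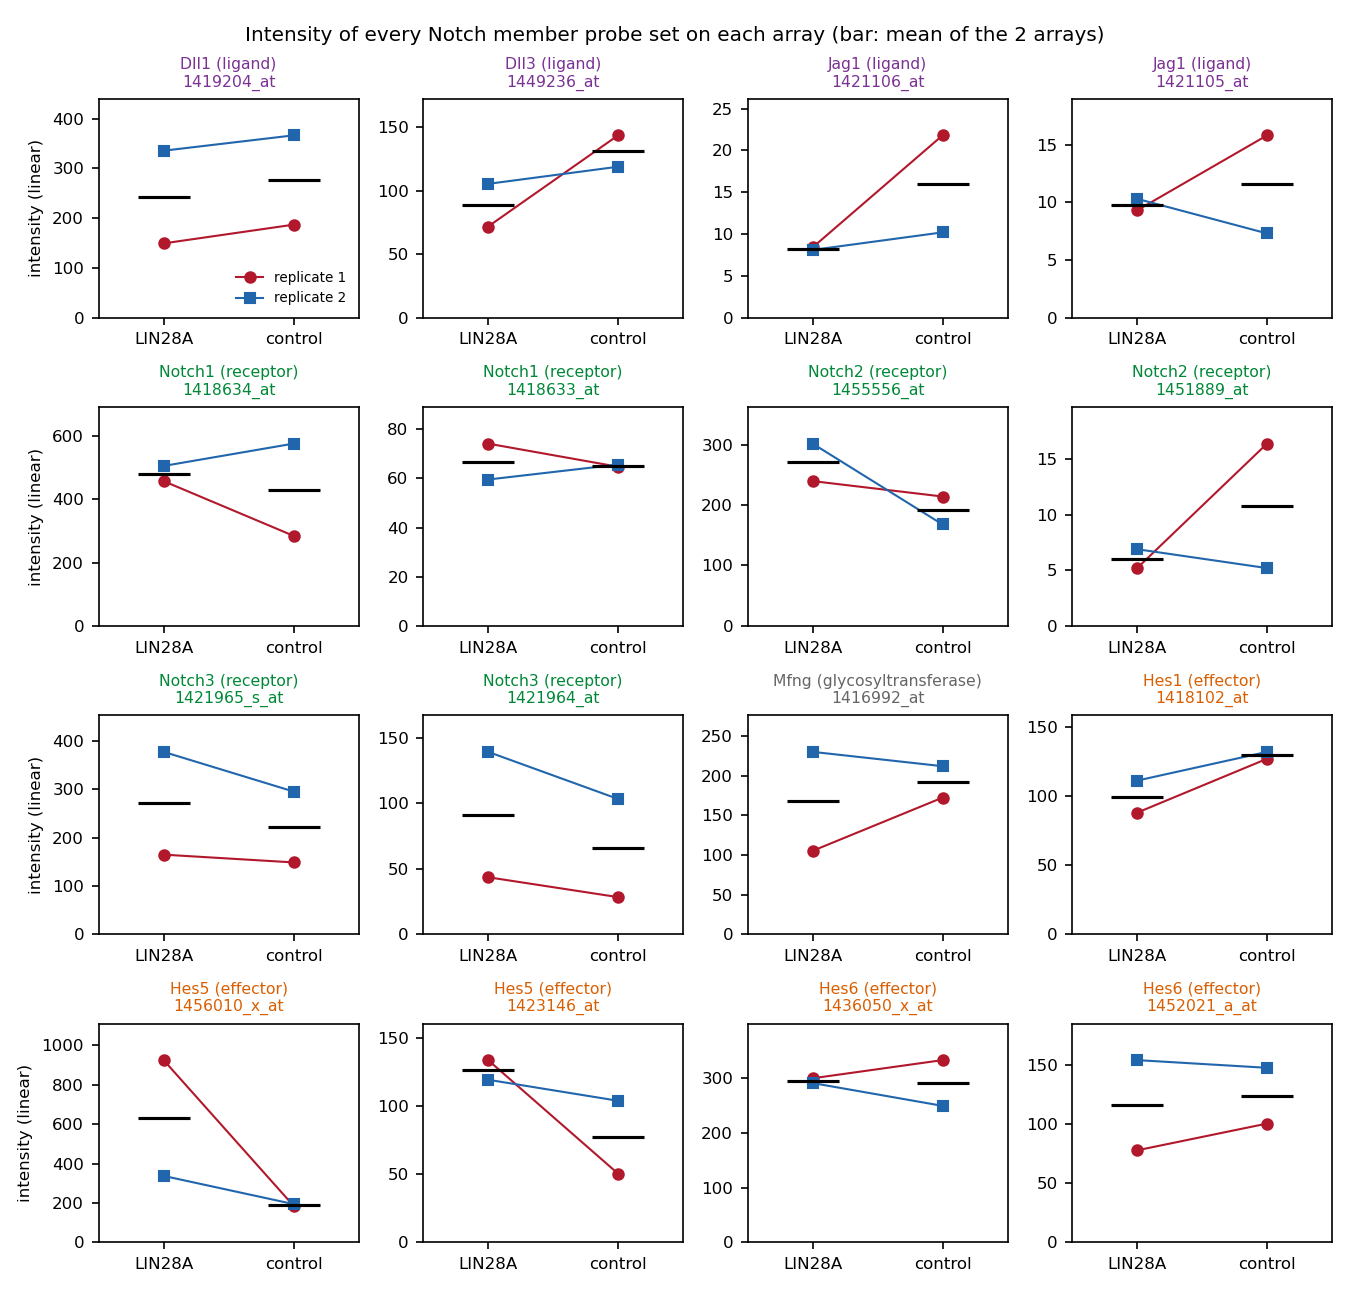
Linear intensity (y axis, from 0) of all 16 member probe sets on the 4 arrays, LIN28A left and control right, with circles and squares for numbers 1 and 2, a line joining arrays of the same number, and a bar at the mean of the 2 arrays. Both Hes5 panels have the LIN28A arrays above the control arrays, while Dll1 and Notch3 differ mostly between the numbers.

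Hes1, the other repressor, did not share the direction of Hes5. It read 87.9 and 111 in LIN28A 1 and 2, against 127 and 132 in control 1 and 2, so that both LIN28A arrays lay below both control arrays by a small margin. The means were 99.5 ± 16.4 and 129 ± 3.54 in LIN28A and control cells (SD, n = 2 each), and the log2 difference was -0.34 ± 0.29 (SE), with -0.46 for number 1 and -0.22 for number 2. Its value was -0.19 without LIN28A replicate 1.

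Hes6 had overlapping groups at both probe sets. Its probe set 1436050_x_at read 299 and 290 in LIN28A cells and 332 and 249 in control cells, with the control arrays at either end. The log2 difference was 0.03 ± 0.30 (SE), and -0.16 without control replicate 2. At 1452021_a_at, Hes6 read 77.8 and 154 in LIN28A 1 and 2 and 100 and 148 in control 1 and 2, so number 2 was the higher one in both lines. The difference there was -0.13 ± 0.40 (SE), and 0.30 without LIN28A replicate 1 and 0.12 without control replicate 2.

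All 4 ligand probe sets lay below 0 when LIN28A cells were set against control cells, except that the dimmer Jag1 one turned above 0 under quantile normalization and median centring. Dll3 had the largest difference of them, reading 71.8 and 105 in LIN28A 1 and 2 and 144 and 119 in control 1 and 2. The groups did not overlap, and LIN28A 1 was the lowest array and control 1 the highest. Means were 88.6 ± 23.8 in LIN28A cells and 131 ± 17.5 in control cells (SD, n = 2 each), with a log2 difference of -0.51 ± 0.31 (SE) that was -0.86 for number 1 and -0.15 for number 2. The value was -0.27 without LIN28A replicate 1.

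Dll1, the main Delta ligand of neurogenesis, read 149 and 335 in LIN28A 1 and 2, against 187 and 366 in control 1 and 2. LIN28A was the lower line in each number, but the numbers differed far more than the lines. The difference between lines was -0.30 in number 1 and -0.12 in number 2, while number 2 exceeded number 1 by 1.09 in LIN28A cells and 0.91 in control cells (log2). Leaving out one array mixes that difference between numbers into the one between lines, and turned the combined value of -0.21 ± 0.50 (SE) to 0.34 without LIN28A replicate 1 and 0.25 without control replicate 2.

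Jag1, a ligand of the Serrate type, was dim at both probe sets. Probe set 1421106_at read 8.40 and 8.10 in LIN28A cells and 21.8 and 10.2 in control cells, with control 1 standing above the other 3 arrays. Its log2 difference of -0.38 ± 0.31 (SE) was -0.11 without control replicate 1 and -0.64 without control replicate 2. At 1421105_at, Jag1 read 9.30 and 10.3 in LIN28A cells and 15.8 and 7.30 in control cells, which overlap. The difference there was -0.08, but 0.09 under quantile normalization, 0.05 under median centring and 0.15 without control replicate 1.

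The receptors lay on the other side of 0, at all 5 of their probe sets past the filter. Notch2 was the receptor whose groups did not overlap, at 1455556_at, which read 240 and 302 in LIN28A 1 and 2 and 214 and 168 in control 1 and 2. The means were 271 ± 43.8 in LIN28A cells and 191 ± 32.7 in control cells (SD, n = 2 each). The log2 difference was 0.47 ± 0.30 (SE), made up of 0.15 for number 1 and 0.79 for number 2, and it was 0.31 without control replicate 2 and also without LIN28A replicate 2. Its second probe set, 1451889_at, was too dim for the filter, at 5.20 and 6.90 in LIN28A cells and 16.4 and 5.20 in control cells, and was not tested.

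Notch1, a receptor that neural progenitors use, read 458 and 506 in LIN28A 1 and 2 and 285 and 576 in control 1 and 2 at its brighter probe set, 1418634_at. The control arrays lay at both ends, so the difference was 0.66 in number 1 and -0.18 in number 2, combining to 0.24 ± 0.40 (SE), or -0.25 without control replicate 1 and 0.72 without control replicate 2. The probe set 1418633_at read 74.1 and 59.5 in LIN28A cells and 64.7 and 65.6 in control cells, a difference of 0.02 ± 0.28 (SE) that was -0.10 without LIN28A replicate 1.

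Notch3 followed the number at both probe sets, as Dll1 did. Probe set 1421965_s_at read 165 and 378 in LIN28A 1 and 2 and 149 and 296 in control 1 and 2. Probe set 1421964_at read 43.5 and 139 in LIN28A 1 and 2 and 28.3 and 103 in control 1 and 2. Within each number the LIN28A array was the higher one, by 0.14 and 0.34 at the brighter probe set and by 0.43 and 0.38 at the other (log2, numbers 1 and 2), against 0.92 to 1.43 between the numbers. The combined differences of 0.24 ± 0.51 and 0.40 ± 0.64 (SE) became -0.22 and -0.31 without control replicate 1 and -0.33 and -0.29 without LIN28A replicate 2.

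Mfng, a Fringe enzyme that adds sugar to Notch and so tunes which ligands it answers, read 105 and 230 in LIN28A 1 and 2 and 172 and 212 in control 1 and 2. LIN28A was lower in number 1 (-0.64) and slightly higher in number 2 (0.11). The combined log2 difference was -0.26 ± 0.41 (SE), and 0.25 without LIN28A replicate 1.

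**Figure D2:**
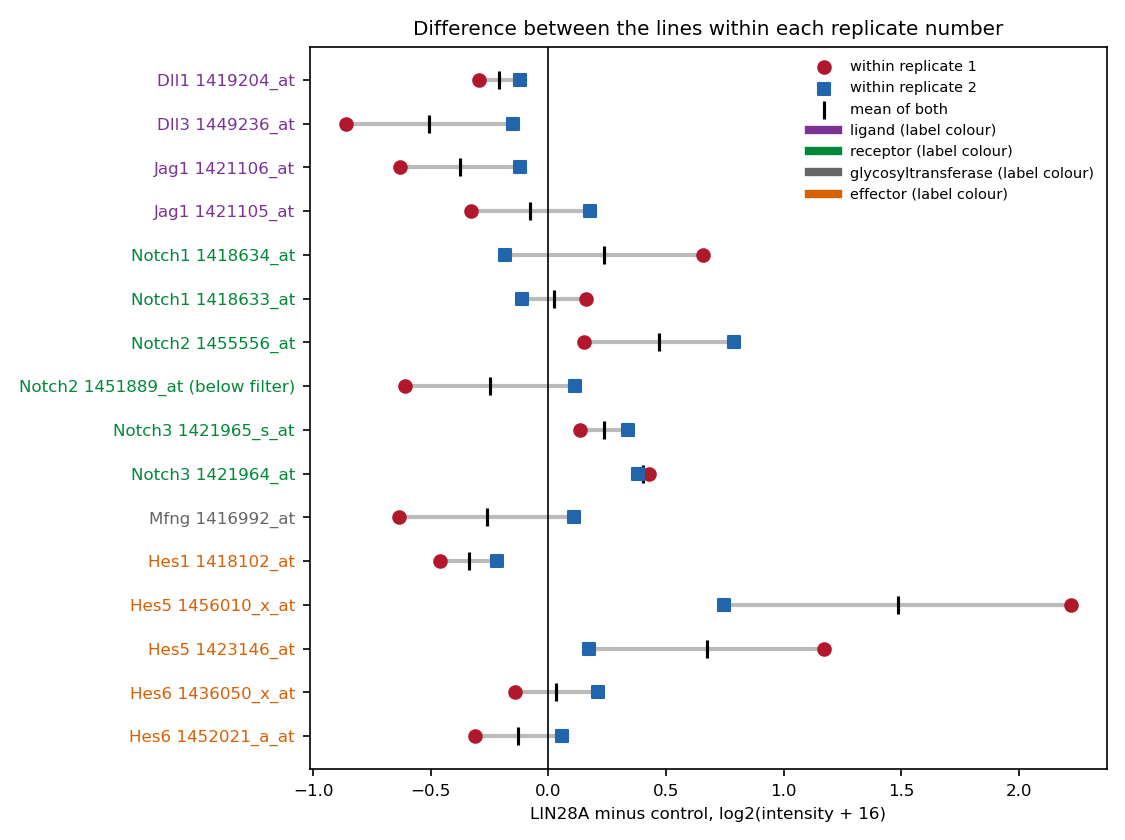
Difference between LIN28A and control arrays in log2(intensity + 16) (x axis) for each member probe set (rows, label colour by role), with a circle for number 1, a square for number 2 and a tick for their mean. The 4 ligand probe sets have means below 0 (that of Jag1 1421105_at turned under quantile normalization and median centring), the 5 receptor probe sets past the filter have means above 0, and the Hes probe sets spread from -0.34 for Hes1 to 1.48 for Hes5.

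Set side by side by role, and each gene taken at its brightest probe set, the ligands had a median log2 difference of -0.38, the receptors 0.24 and the Hes genes 0.03, against -0.05 over all probe sets tested. Within number 1 these medians were -0.63 for the ligands, 0.15 for the receptors and -0.14 for the Hes genes, and within number 2 they were -0.12, 0.34 and 0.21, against -0.09 and -0.0024 over all probe sets. The ligand median minus the joint median of receptors and Hes genes was -0.77 for number 1, -0.40 for number 2 and -0.61 for the combined fit. The ligand median of the combined fit and of number 1 was the value of Jag1 at 1421106_at, a dim probe set where control 1 stood apart. A filter at the 50th percentile left Jag1 out, and the ligand median was then -0.36 and the gap -0.59. Each role rests on 3 genes and each number on 1 array a line, so the gap carries no test. Leaving out control replicate 1 turned the receptor median to -0.22, and leaving out control replicate 2 put it at 0.70 and LIN28A replicate 1 at 0.63. The ligand median was -0.74 without LIN28A replicate 2 and stayed below 0 in every other such fit, while the gap was -1.13 without control replicate 2. Without control replicate 2 the Hes median was -0.16. Median centring moved the median of all probe sets by more than 0.1, to 0.08, and the role medians with it, to -0.25, 0.36 and 0.16 for ligands, receptors and Hes genes. The size of the ligand median also moved with the scale, to -0.58 with a pseudocount of 1 and -0.17 with 64, and was -0.23 both under quantile normalization and with a gene's probe sets averaged. The gap was -0.37 with a pseudocount of 64 and -0.45 with probe sets averaged.

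Counted over the 15 tested probe sets, 3 had both LIN28A arrays above both control arrays (both of Hes5 and 1 of Notch2), against 10.0% of all probe sets. A further 3 had both below (Dll3, Jag1 and Hes1), against 15.5% of all. LIN28A was the higher line in number 1 and again in number 2 at 5 of them (24.2% of all probe sets) and the lower line in both numbers at 4 (33.3%). The replicate number separated the arrays more than the line did at 9 of the 15 (60%), against 66% of all probe sets. With so few probe sets, some of them from the same gene, and with members chosen when such results were known, these counts describe the members and no more.

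Of 56 other genes listed for the pathway, 48 had a probe set and 43 passed the filter. By the test across all probe sets 0 of them passed in either direction. Before adjustment 1 of them, Dtx3, had a p under 0.05, with LIN28A lower, against 1.21% of all probe sets. Their median log2 difference was -0.07, with 17 above 0 and 26 below. At their brightest probe set, 3 of the 43 had both LIN28A arrays above both control arrays and 9 had both below, against 10.0% and 15.5% of all probe sets, so these counts do not set the pathway apart.

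Among the ligand-like genes, 1 of 5 lay above 0. Dlk2, which lacks the domain by which Delta proteins bind Notch, was dim and read 12.1 and 19.3 in LIN28A cells and 29.6 and 23.1 in control cells. The genes that modify ligands and receptors had 6 members tested, with a median of -0.28. Rfng, a Fringe enzyme like Mfng, read 116 and 147 in LIN28A cells and 166 and 209 in control cells (-0.46 ± 0.30 SE, and -0.85 at its other probe set). Poglut1, which adds glucose to Notch, read 243 and 244 in LIN28A cells and 291 and 325 in control cells. Lfng, the third Fringe, lay on the other side, at 57.6 and 65.9 in LIN28A cells and 50.8 and 45.5 in control cells, while its other probe set was too dim to be tested.

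Of all probe sets, 10.0% had both LIN28A arrays above both control arrays and 15.5% had both below. None of the 7 proteases had arrays that separated by line, and their median was -0.07. Of 12 genes of the nuclear complex and its corepressors, Maml1, a Mastermind coactivator, was the only one with separated arrays, reading 303 and 258 in LIN28A cells and 358 and 330 in control cells, with differences of -0.28 and -0.29 at its 2 probe sets. Rbpj itself differed by -0.08.

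Other targets of the pathway were split, as the Hes genes were. Nrarp, a target that feeds back on Notch, read 374 and 313 in LIN28A cells and 269 and 285 in control cells, with log2 differences of 0.46 in number 1 and 0.13 in number 2. Its other probe set differed by 0.10 with overlapping groups. Hey2, a repressor related to Hes, was dim and read 13.2 and 10.9 in LIN28A cells and 24.2 and 16.7 in control cells. In the combined fit 4 of the 5 tested targets lay below 0, of which Hey2, Heyl and Hes3 were dim. Hey1 read 156 and 157.5 in LIN28A cells and 290 and 146 in control cells, so that only control 1 stood apart. Within number 2, 3 of the 5 lay above 0, and the median was 0.06, against -0.47 in number 1.

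Of 7 inhibitors and degradation factors, Dtx3, of the Deltex family of ubiquitin ligases, had the largest difference. It read 89.4 and 124 in LIN28A cells and 200.3 and 185 in control cells, a log2 difference of -0.78 ± 0.30 (SE), with -1.04 in number 1 and -0.52 in number 2. Dtx1 of the same family was dim, at 8.40 and 10.5 in LIN28A cells and 24.8 and 17.6 in control cells. Itch, a ubiquitin ligase that acts on Notch, read 157 and 152 in LIN28A cells and 92.6 and 146 in control cells, and only control 1 stood clearly apart.

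**Figure D3:**
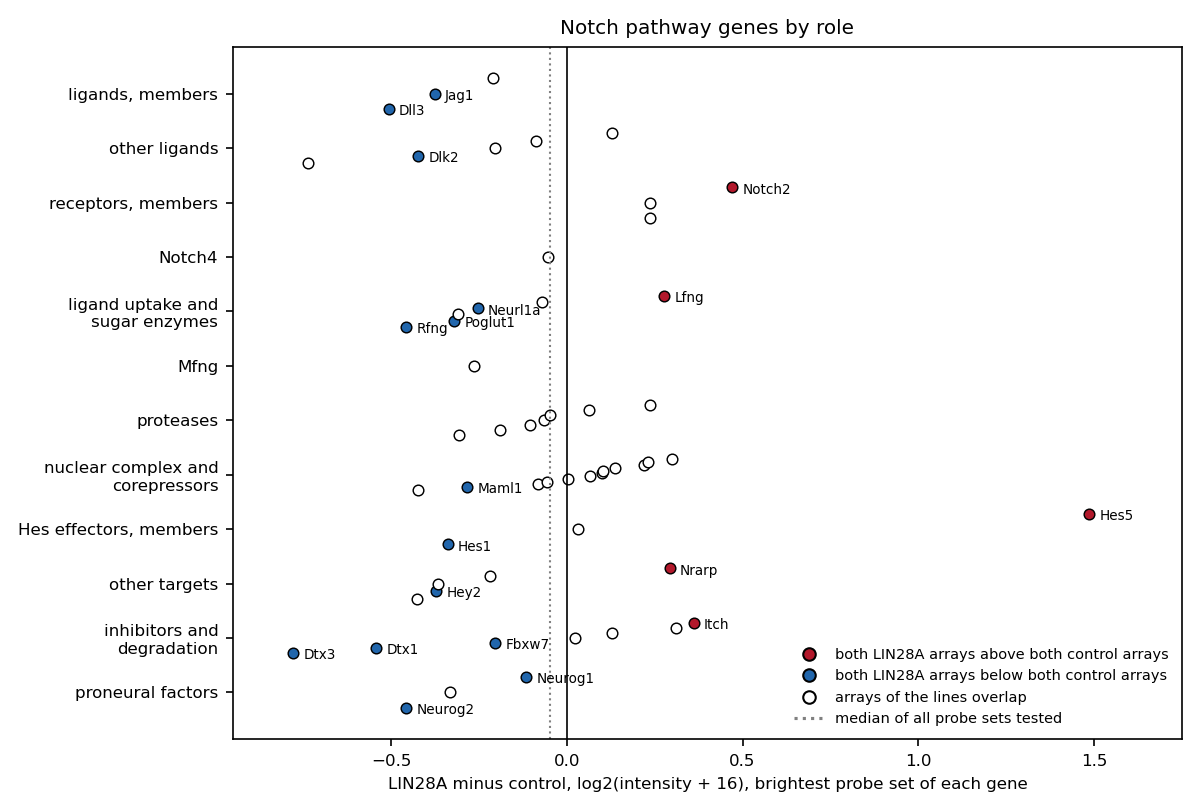
Log2 difference between LIN28A and control (x axis) for every tested gene of the pathway at its brightest probe set, in rows by role, with red points where the LIN28A pair of arrays lay above the control pair, blue points where it lay below and white points where the lines overlap. Hes5, at 1.48, lies far to the right of the other genes, and the dotted line marks the median of all probe sets at -0.05.

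The proneural factors that Hes proteins repress were followed at 3 genes, and all 3 lay below 0. Neurog2 read 44.4 and 73.3 in LIN28A 1 and 2 and 79.1 and 90.8 in control 1 and 2, a log2 difference of -0.46 ± 0.32 (SE). Neurog1 read 493 and 534 in LIN28A cells and 555 and 559 in control cells, a difference of -0.11 that was 0.01 under median centring.

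Marker genes of other cell types and states were set beside Hes5, a progenitor gene, and the Delta ligands, which are made by cells entering neurogenesis. In a bulk sample, fewer cells of a type and less RNA per cell cannot be told apart. Of 10 neural progenitor markers, 7 were higher in LIN28A than in control in number 1 and 1 in number 2, with medians of 0.25 and -0.51. Their summed intensity was 8740 and 7168 in LIN28A 1 and 2 and 8641 and 10498 in control 1 and 2. Hes5 was higher in LIN28A cells in both numbers, by 2.22 (number 1) and 0.75 (number 2) at its brighter probe set and by 1.17 and 0.17 at the other. The progenitor genes with the largest values in number 1, Sox3, Pax6 and Nes, differed there by 1.09, 0.90 and 0.72, and by -0.72, -0.76 and -0.53 in number 2. Sox2, Vim and Msi1 went the other way in number 1, by -0.29, -0.15 and -0.14. Of the 10 markers, 0 had both LIN28A arrays above both control arrays, against 10.0% of all probe sets. Both lay below at 2, Sox2 and Vim, against 15.5%.

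Of 12 neuronal markers, 0 lay above 0 in the combined fit, where the median of all probe sets was also below 0, at -0.05. Tubb3 differed by only -0.09 in that fit, and by 0.25 in number 2. In each number 1 of the 12 lay above 0. At 3 of the 12 both LIN28A arrays lay below both control arrays, against 15.5% of all probe sets. The median of the 12 was -0.69 in number 1 and -0.57 in number 2. Their summed intensity was 2271 and 4930 in LIN28A 1 and 2 and 4315 and 7007 in control 1 and 2. At an unadjusted p under 0.05, 1 of the 12, Mapt, was lower, against 1.21% of all probe sets. Mapt read 61.0 and 36.5 in LIN28A 1 and 2 and 232 and 182 in control 1 and 2. The log2 difference of Mapt was -1.80 ± 0.33 (SE), with a limma p of 0.0018 unadjusted and 0.999997 adjusted. LIN28A 1, the array with the highest Hes5 but the lowest Hes1, and with the lowest Dll1, Dll3, Mfng and Neurog2, had the lowest neuronal sum. Mapt was instead lowest on LIN28A 2. LIN28A 1 also had the lowest median intensity over all probe sets (29.0) and the most probe sets under 16 (42.3%). These genes were picked after their values were seen, and 4 arrays are too few for a likeness of pattern. No marker of either list was at 0 on any array. The part that these marker levels have in the Notch values was not tested.

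Markers of cells outside the neural course also differed, by number and by line. Of 10 pluripotency markers 8 were bright enough to be tested, with 4 of the 8 above 0 and medians of -0.51 in number 1 and 0.87 in number 2. Their summed intensity was 296.5 and 1018 in LIN28A 1 and 2 and 244 and 449 in control 1 and 2. Pou5f1, a core pluripotency factor, made up most of the number 2 sums, at 28.7 and 775 in LIN28A 1 and 2 and 30.3 and 374 in control 1 and 2. Sall4, a zinc finger factor of pluripotent cells, instead followed the line, at 194 and 83.1 in LIN28A 1 and 2 and 16.4 and 2.10 in control 1 and 2. Its log2 difference of 2.58 ± 0.49 (SE) was larger than that of Hes5, and limma gave it an unadjusted p of 0.0020 and a Benjamini-Hochberg adjusted p of 0.999997. Of the 8 tested, 2 had both LIN28A arrays above both control arrays (Sall4 and Utf1), against 10.0% of all probe sets. Another 2 had both below (Fgf4 and Esrrb), against 15.5%. Utf1, Fgf4 and Esrrb were dim.

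Of 10 fibroblast and smooth muscle markers 7 were tested and 6 lay above 0, with medians of -0.01 in number 1 and 0.84 in number 2. Their sums were 321 and 513 in LIN28A 1 and 2 and 323 and 172 in control 1 and 2. At an unadjusted p under 0.05, 2 were higher (Acta2 by 0.91 and Col3a1 by 1.52 on the log2 scale) and 1, Lox, was lower. Of all probe sets, 0.442% were higher and 1.21% lower at that threshold. Of 5 endoderm markers tested 4 lay above 0, with medians of -0.28 and 0.65 in numbers 1 and 2, and of 5 mesoderm markers 3 did, with medians of -0.21 and 0.32. The endoderm sums were 774 and 1155 in LIN28A 1 and 2 and 799 and 947 in control 1 and 2, and the mesoderm sums were 47.5 and 148 in LIN28A 1 and 2 and 65.5 and 66.3 in control 1 and 2. Number 2, in which these 4 lists had their higher medians, is also the number in which Notch2 at 1455556_at differed more (0.79, against 0.15 in number 1). The part of these markers in the Notch values was not tested.

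**Figure D4:**
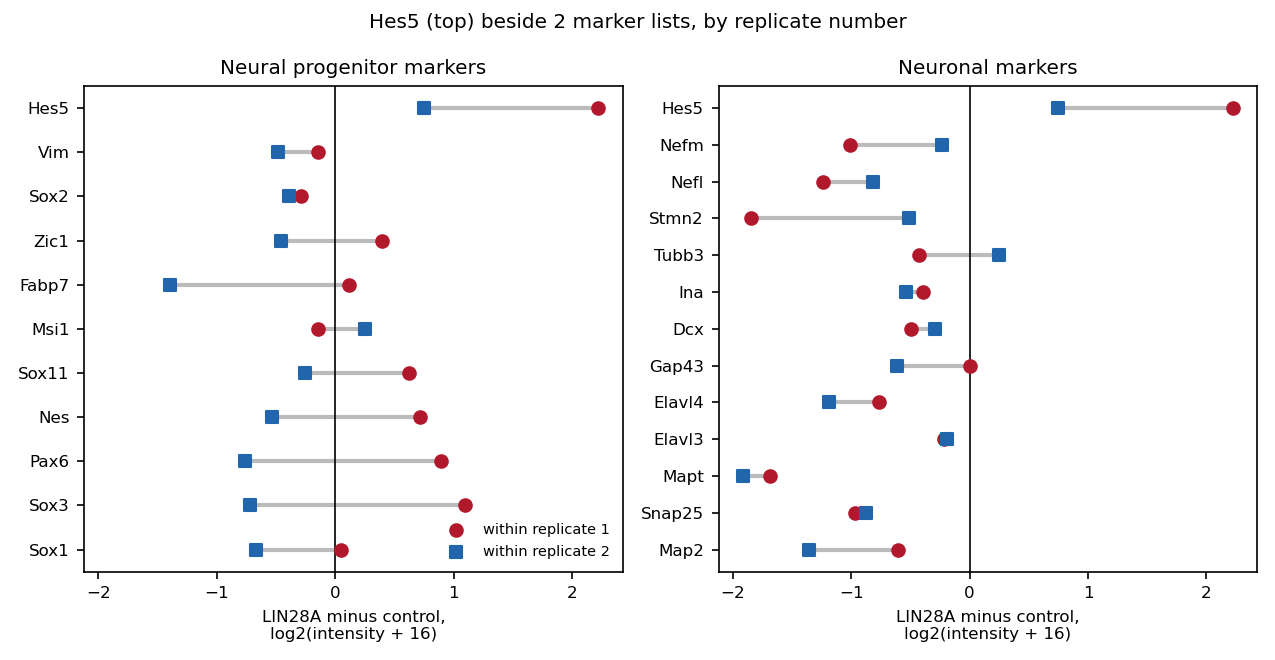
Difference between LIN28A and control in log2(intensity + 16) (x axis) for Hes5 at its brighter probe set (top row) and for 10 neural progenitor markers (left) and 12 neuronal markers (right), with a circle for number 1 and a square for number 2. Hes5 lies above 0 in both numbers, the progenitor markers have medians of 0.25 in number 1 and -0.51 in number 2, and the neuronal markers lie mostly below 0 in both.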

How the data were processed

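RNA was measured on 4 one-colour Affymetrix arrays. Per the labels' protocols, cDNA was primed with oligo(dT) and transcribed in vitro into cRNA carrying biotin. The authors deposited linear intensity values for 22690 probe sets. No source used here names the software, but each array had the same trimmed mean, 150.1, with 2% taken from either end, so no further scaling was applied. Symbols came from the platform's annotation.

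Without the 64 control probe sets, values were turned into log2(intensity + 16), and a probe set was tested if its mean reached the 30th percentile of all (8.04 on the linear scale), which kept 15838. Lines were compared with limma 3.58.1 (R 4.3.3, lmFit and eBayes without a block), with Benjamini-Hochberg adjustment and a threshold of 0.05. The fit was run on simulated data, but with differences larger than those of the members. That run does not show how the fit handles differences of the members' size. With 2 arrays against 2, an exact permutation test of a single value (two-sided) cannot go below p = 0.333, so none is given.

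The members, gene lists and tests were chosen with earlier results of these data known. Every member probe set is reported. Of other pathway and proneural genes, those named had arrays that separated by line at their brightest probe set, at most 3 a role. Exceptions were Rbpj, Hey1, Heyl and Hes3, which, like all marker genes, were named after their values were seen.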

Additional observations from a re-analysis of the deposited data

How the results depend on the processing

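Among the members, 0 probe sets passed the adjusted threshold under any of the 13 alternatives. Of 193 member values recomputed, 177 kept their direction and 16 turned it, 13 of these on leaving out 1 array. Over all probe sets the replicate block called 1 higher, and 3 higher with quantile normalization as well, and 0 lower in both. Deviations from the group means correlated between arrays of one number (r = 0.62, across probe sets), but the labels give no more than a shared number. With the replicate block the lowest adjusted p of a member was 0.48, for Hes5 at 1456010_x_at (0.29 with quantile normalization as well). Jag1 at 1421105_at turned to 0.085 under quantile normalization, with and without the replicate block, and to 0.049 under median centring.

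Fits without 1 array carry part of the difference between numbers into that between lines. They ranged from -0.75 to 0.34 for Dll1, -0.16 to 0.23 for Hes6 at 1436050_x_at and -0.56 to 0.30 at 1452021_a_at, -0.30 to 0.15 for Jag1 at 1421105_at, -0.77 to 0.25 for Mfng, -0.25 to 0.72 for Notch1 at 1418634_at and -0.10 to 0.15 at 1418633_at, and -0.31 to 1.12 for Notch3 at 1421964_at and -0.33 to 0.80 at 1421965_s_at. The ligand median ranged from -0.74 to -0.27, the receptor median from -0.22 to 0.70, the Hes median from -0.16 to 0.23, and the ligand median minus that of receptors and Hes genes from -1.13 to -0.39. With a gene's probe sets averaged, the ligand, receptor and Hes medians were -0.23, 0.32 and -0.047, and the gap was -0.45. The Hes median was 0.0099 under quantile normalization. The cause of these shifts was not tested.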
